A study of Mus musculus with 14 samples.

Results

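Brains of mice with the imprinting center of the Prader-Willi syndrome region deleted (PWS-IC del) were compared with brains of wild-type mice. It used the 7 arrays titled as brain samples, 4 wild-type and 3 PWS-IC del, of the 14 arrays of the series; the 7 muscle arrays were not compared, and entered only 1 alternative choice of probe sets. Both groups were first-generation (F1) crosses of FVB with B6, and controls were littermates of the same age as the mutants; their age and any treatment are not stated. The labels name no Cre or transgene and do not say from which parent the deletion was inherited. Each brain's total RNA was read on 1 Affymetrix Mouse Genome 430 2.0 array, where a transcript's level is the intensity of a set of probes. Levels are given as log2(intensity + 16), a scale whose floor is 4.00. A difference is the mutant mean minus the wild-type mean in these units. The titles call the arrays biological replicas; if any shared an animal, p-values would measure only the spread between samples. In pieces of whole tissue, fewer cells of a type and less RNA per cell cannot be told apart.

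Imprinted genes are read from the copy of 1 parent. The domain studied here lies on chromosome 7 in the mouse, and its imprinting center carries DNA methylation on the maternal copy and keeps a row of genes active on the paternal copy. The paternally read genes include Snurf and Snrpn, Ndn, Magel2, Mkrn3 and the long noncoding host transcript Snhg14, which carries clusters of small nucleolar RNAs. The far end of that transcript runs antisense to Ube3a, and in neurons Ube3a is read from the maternal copy. Loss of the paternal activity of the human counterpart causes Prader-Willi syndrome, with weak muscle tone and poor feeding in infants and overeating later in life.

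The promoters of 4 paternally read protein-coding loci and of the maternally read Ube3a are shown because the comparison asks how these genes differ between the genotypes. Each line gives 250 bases before and 50 bases after a transcription start in RefSeq's annotation of GRCm38.p6, 5′ to 3′ on the gene's strand. Capitals mark CG, the dinucleotide that carries methylation.
Snurf and Snrpn, minus strand, chr7:60005150-60005449: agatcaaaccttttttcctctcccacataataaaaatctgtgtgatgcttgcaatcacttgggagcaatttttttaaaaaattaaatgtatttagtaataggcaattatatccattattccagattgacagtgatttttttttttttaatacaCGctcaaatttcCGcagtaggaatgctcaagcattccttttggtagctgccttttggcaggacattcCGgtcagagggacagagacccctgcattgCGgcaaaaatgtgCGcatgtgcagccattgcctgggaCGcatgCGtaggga
Ndn, plus strand, chr7:62348027-62348326: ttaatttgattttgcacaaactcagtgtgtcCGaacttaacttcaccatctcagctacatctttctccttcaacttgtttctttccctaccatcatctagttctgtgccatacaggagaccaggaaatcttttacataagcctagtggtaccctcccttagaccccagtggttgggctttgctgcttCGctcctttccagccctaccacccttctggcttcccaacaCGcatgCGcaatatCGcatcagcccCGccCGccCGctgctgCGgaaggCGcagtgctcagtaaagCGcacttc
Magel2, plus strand, chr7:62376729-62377028: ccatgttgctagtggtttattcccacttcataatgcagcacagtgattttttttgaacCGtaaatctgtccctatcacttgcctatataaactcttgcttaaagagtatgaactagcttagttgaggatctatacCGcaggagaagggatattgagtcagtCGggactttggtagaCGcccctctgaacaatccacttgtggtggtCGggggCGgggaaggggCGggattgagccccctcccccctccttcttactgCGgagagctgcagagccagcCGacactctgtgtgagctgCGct
Mkrn3, minus strand, chr7:62420104-62420403: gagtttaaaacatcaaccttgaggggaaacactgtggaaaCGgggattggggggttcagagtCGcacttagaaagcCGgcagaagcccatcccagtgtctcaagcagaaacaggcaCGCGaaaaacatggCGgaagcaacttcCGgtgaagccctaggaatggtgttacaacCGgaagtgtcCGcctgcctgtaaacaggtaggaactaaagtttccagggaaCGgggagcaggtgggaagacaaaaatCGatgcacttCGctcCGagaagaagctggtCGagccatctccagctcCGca
Ube3a, plus strand, chr7:59228500-59228799: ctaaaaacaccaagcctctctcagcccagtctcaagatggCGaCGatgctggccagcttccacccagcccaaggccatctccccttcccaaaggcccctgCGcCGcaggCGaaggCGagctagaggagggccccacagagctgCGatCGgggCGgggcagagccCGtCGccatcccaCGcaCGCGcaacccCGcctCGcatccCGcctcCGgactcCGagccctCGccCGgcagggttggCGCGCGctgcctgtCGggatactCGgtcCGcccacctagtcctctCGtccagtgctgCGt

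The motif searched was CG, which reads the same on both strands. The windows held 7 CG at Snurf and Snrpn, 11 at Ndn, 10 at Magel2, 15 at Mkrn3 and 29 at Ube3a. Of all 32817 RefSeq promoter windows of this length, with a median of 7, the shares holding at least as many were 52.1%, 41.4%, 43.4%, 34.6% and 12.9% in the same order. Ube3a, the maternally read gene, had the window richest in CG of these 5. RefSeq gives Snrpn 3 further starts, not shown, whose windows held 4, 3 and 2 CG, counts that 68.6% to 85.9% of all windows reach. Methylation was not measured.

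The tissue label was checked against marker genes before the genotypes were compared. Neuronal, astrocyte and oligodendrocyte transcripts were bright on every array: the synaptic gene Snap25 lay between 13.66 and 13.83, the glutamate transporter gene Slc1a2 between 13.25 and 13.63 and the myelin gene Mbp between 13.67 and 13.98. Region markers were not. Slc6a3, the dopamine transporter of midbrain neurons, was at 5.93 in WT 1, at 5.69 in WT 2 and lower still in PWS-IC del 3, and between 8.87 and 10.35 on the other 4 arrays. Tph2, which makes serotonin in raphe neurons, was at 4.51, 5.31 and 5.31 on those 3 arrays and between 7.82 and 10.11 on the others. The glycine transporter gene Slc6a5 of brainstem neurons was near the floor, at 4.02, 4.01 and 4.00, against 6.04 to 8.18. Those 3 arrays were therefore poor in midbrain and brainstem transcripts, although every sample carries the label whole brain.

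Other arrays stood apart in their own way. WT 1 and WT 2 were high in S100a5, a gene of olfactory sensory neurons, at 12.03 and 11.22 against 6.19 to 6.79 elsewhere. WT 1 and WT 3 carried skeletal muscle transcripts, with the troponin gene Tnnt3 at 10.21 and 9.57 against 4.88 to 5.99. WT 3 had the pituitary hormone genes Prl at 10.45 and Gh at 9.17. PWS-IC del 2 was far above the rest in the cerebellar genes Pcp2 at 16.76 and Fat2 at 13.34, and PWS-IC del 1 in the hypothalamic hormone genes Avp at 13.50 and Oxt at 11.42. Pcp2 on PWS-IC del 2 was also that array's highest intensity, 110878, where the highest value of the other arrays lay between 16233.7 and 18022.4. Results are given beside their value within the 4 arrays rich in midbrain transcripts (PWS-IC del 1 and 2 against WT 3 and 4) and within the 3 poor in them (PWS-IC del 3 against WT 1 and 2), a division made after these levels were seen. The latter set has 1 mutant array, so its values are given here without a test.

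**Figure D1:**
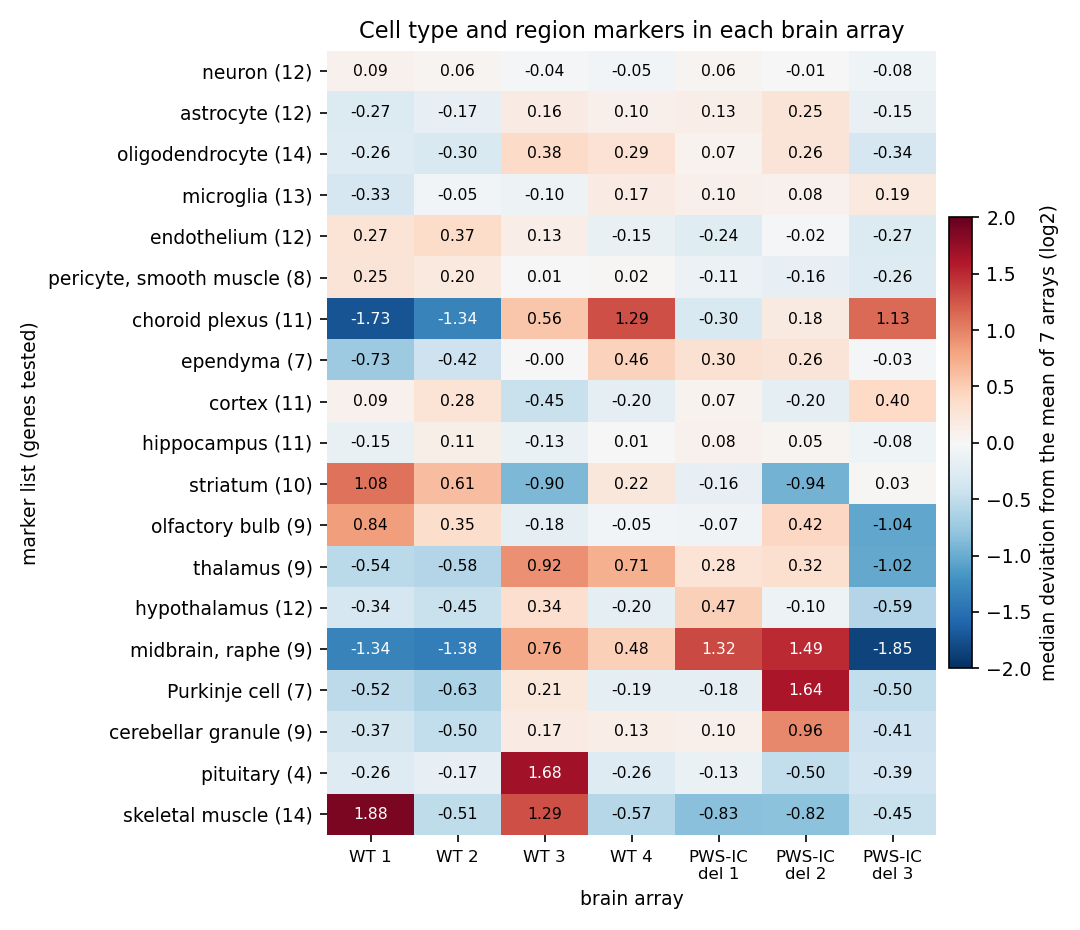
Heat map of marker lists (vertical axis, with the number of genes tested) on each brain array (horizontal axis). Each cell is the list's median deviation from the mean of the 7 arrays in log2 units: midbrain and raphe markers were at -1.34 and -1.38 on WT 1 and WT 2 and at -1.85 on PWS-IC del 3, and skeletal muscle markers at 1.88 on WT 1 and 1.29 on WT 3, while neuronal markers stayed between -0.08 and 0.09.

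Of the paternally read protein-coding genes of the domain, Snrpn and Ndn fell in mutant brain, Magel2 just missed the threshold, and Mkrn3 and Peg12 were too dim for the test. Of 18193 genes with a probe set of their own, 13645 were bright enough to be tested, at a mean of at least 6.65 over the 7 arrays. Mutants count in that mean, so a gene that fell far in mutants could miss the filter. Using limma with Benjamini-Hochberg adjustment, 6 genes were lower in PWS-IC del at an adjusted p below 0.05, 0.044% of those tested, and 0 were higher (0%). The domain had 16 measured genes and transcripts, counted by symbol in the platform annotation, 10 of them tested, and 5 of these 10 fell. The median standard error of a difference was 0.13, and of all genes tested 8.61% had groups that did not overlap, the share against which counts of genes without overlap are read below.

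Snrpn encodes SmN, a protein of the spliceosome made mainly in brain. Its level was 10.29, 10.59, 10.64 and 10.55 in WT 1 to 4 and 6.48, 5.03 and 5.44 in PWS-IC del 1 to 3. The lowest wild-type array was thus far above the highest mutant array, and PWS-IC del 1 kept the most signal. Snrpn fell by 4.87 ± 0.30 (SE; n = 4 and 3), a 29.2-fold lower level, with an adjusted p of 0.000236 from limma. Pseudocounts of 1 and 64 gave differences of -5.44 and -3.91, so the fold depends on the pseudocount.

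A further 6 probe sets are listed under both Snurf and Snrpn, which share a transcript, so they name no single gene. All 6 were lower at an adjusted p below 0.05 in the fit over 45037 probe sets, in which 28, or 0.0622%, passed, 0 of them higher. The probe set with the largest difference of all read 12.98, 13.03, 13.24 and 13.14 in wild type and 4.42, 4.29 and 4.00 in mutants. Mutant brains were at or just above the floor there: the difference was -8.86 ± 0.13, with an adjusted p of 4.82e-08 from limma. Its size depends on the pseudocount and understates the change, so no fold is given. The brightest of the others read 13.12 to 13.35 in wild type and still 10.79 to 10.93 in mutants, a difference of -2.35 ± 0.11, and the remaining 4 differed by -3.79 to -1.98, the dimmest of them at 4.33 to 4.84 in mutants. Which transcript gave the signal left in the mutants was not tested.

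Ndn encodes necdin, a protein of the MAGE family found in neurons that have left the cell cycle. It read 12.61, 12.52, 13.22 and 13.01 in wild type and 7.92, 9.10 and 8.74 in mutants. No mutant array came within 3 log2 units of a wild-type one. Ndn fell by 4.25 ± 0.28, 19-fold, with an adjusted p of 0.000369 from limma. Of its 8 probe sets 7 fell, by 4.13 to 4.83, and the dim remaining one, at 4.64 to 5.62 in wild type, differed by 0.13.

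Magel2, another MAGE gene, whose protein acts in sorting membrane proteins in hypothalamic neurons, read 7.78, 7.51, 8.38 and 8.16 in wild type and 6.17, 6.35 and 5.52 in mutants. The groups did not overlap. Its difference of -1.95 ± 0.25, 3.85-fold lower, just missed the threshold, with an adjusted p of 0.0562 from limma. It passed with no filter on low values (0.0455 in limma) and when the midbrain-rich and midbrain-poor arrays were taken as a block (3.61e-05 in limma), with a difference of -2.06 under the block. Both sets of arrays were named after their levels were seen.

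Mkrn3 encodes a zinc-finger ubiquitin ligase that acts as a brake on puberty. It was too dim for the test, at 5.63, 5.71, 5.61 and 5.35 in wild type and 4.00, 4.00 and 4.11 in mutants. The mutants lay on or beside the floor of the scale, so that the difference of -1.54 understates the change. In the fit with no filter, where 13 of 18193 genes (0.0715%) passed, Mkrn3 fell with an adjusted p of 0.000896 from limma. That call was lost with a pseudocount of 64 (0.0687 in limma) and with the replicate number as a block (0.114). It was also lost without WT 1 and WT 3 (0.0582 in limma) and without WT 3 and PWS-IC del 2 (0.0551). Peg12, another paternally read gene of the domain in the mouse, was dimmer still, at 4.03 to 5.11 in the controls and 4.08 to 4.49 in PWS-IC del. Its difference was -0.19 at levels near the floor.

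**Figure D2:**
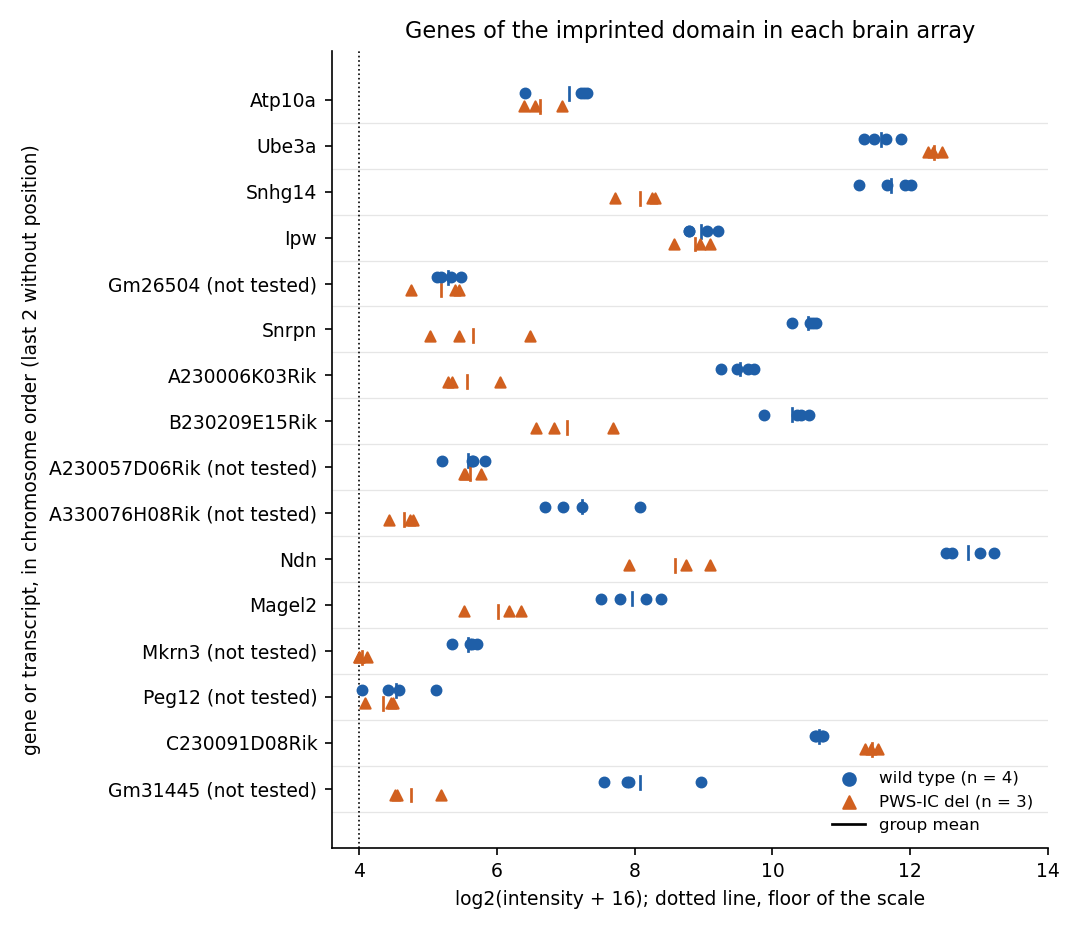
Level of each measured gene or transcript of the imprinted domain (vertical axis) in log2(intensity + 16) (horizontal axis), with 4 wild-type circles, 3 PWS-IC del triangles and a bar at each group's mean. Snrpn, Ndn, Snhg14, A230006K03Rik and B230209E15Rik in mutants differ from wild type by -4.87 to -3.27 log2 units, Mkrn3 in mutants lies at the floor of 4.00, and Ube3a and C230091D08Rik lie 0.76 above.

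Of the long noncoding transcripts of the domain, Snhg14, A230006K03Rik and B230209E15Rik fell. Snhg14 read 12.01, 11.26, 11.93 and 11.66 in wild type and 8.25, 8.29 and 7.71 in mutants. Every mutant array was at least 2 log2 units below every wild-type array. It fell by 3.63 ± 0.21, 12.4-fold, with an adjusted p of 0.0002 from limma, and its 2 dimmer probe sets differed by -2.66 and -1.93 without overlap.

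Between Snrpn and Ndn, RefSeq places 4 long noncoding RNAs of no assigned function that the array measured. A230006K03Rik read 9.64, 9.26, 9.73 and 9.48 in wild type and 5.35, 5.28 and 6.04 in mutants, and fell by 3.97 ± 0.20, 15.7-fold (limma adjusted p = 8.85e-05). With pseudocounts of 1 and 64 its difference was -4.52 and -3.04. B230209E15Rik read 10.36, 9.88, 10.41 and 10.53 against 6.57, 6.83 and 7.68, and fell by 3.27 ± 0.26, 9.64-fold (limma adjusted p = 0.00161). For both, PWS-IC del 3 kept the most signal, and the groups were far apart. Without WT 1 and WT 3, the arrays with muscle transcripts, B230209E15Rik differed by -3.18 and did not pass (limma adjusted p = 0.129), nor did it without WT 3 and PWS-IC del 2 (0.0589 in limma).

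The next of them, A330076H08Rik, was not tested because its mean over all 7 arrays, mutants included, missed the filter. It read 6.70 to 8.07 in the controls, with a mean of 7.24, and 4.43 to 4.78 in PWS-IC del. In the fit with no filter it fell by 2.59 (limma adjusted p = 0.0145). Leaving out 1 array at a time, the call was lost in 4 of 7 fits, those without WT 3, PWS-IC del 1, PWS-IC del 2 or PWS-IC del 3, with adjusted p-values from limma of 0.0702 to 0.115. A pseudocount of 64 (0.156 in limma) and the replicate number as a block (0.372) also lost it, as did leaving out WT 3 and PWS-IC del 2 (0.232). A230057D06Rik, placed between B230209E15Rik and A330076H08Rik, did not share the pattern: mutants at 5.52 to 5.76 lay inside the wild-type range of 5.20 to 5.82, with a difference of 0.03. Gm31445, a name that RefSeq now lists as a synonym of A230006K03Rik, read 7.56 to 8.96 against 4.52 to 5.18. It fell by 3.33 with no filter (limma adjusted p = 0.00488). That call was lost without WT 3 and PWS-IC del 2 (0.119 in limma) and with the replicate number as a block (0.281).

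Not every transcript in the Snhg14 stretch was lower. Ipw, a noncoding transcript within the Snhg14 unit, read 9.05, 8.79, 8.79 and 9.21 in wild type and 9.09, 8.57 and 8.95 in mutants. Its groups overlapped throughout, and the difference was -0.09 ± 0.16. Gm26504, a small nucleolar RNA of that unit, was too dim for the test and differed by -0.09, and the signs of both turned in some settings. C230091D08Rik, which RefSeq lists as a synonym of Snhg14, went the opposite way: it read 10.62, 10.72, 10.64 and 10.74 in wild type and 11.53, 11.34 and 11.43 in mutants. Every mutant array was above every wild-type array, and its second probe set was also higher without overlap, by 0.90. The difference of 0.76 ± 0.09, 1.69-fold, had an adjusted p of 0.0511 from limma and passed with no filter (0.047 in limma). From which strand or exon its probes read was not tested.

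**Figure D3:**
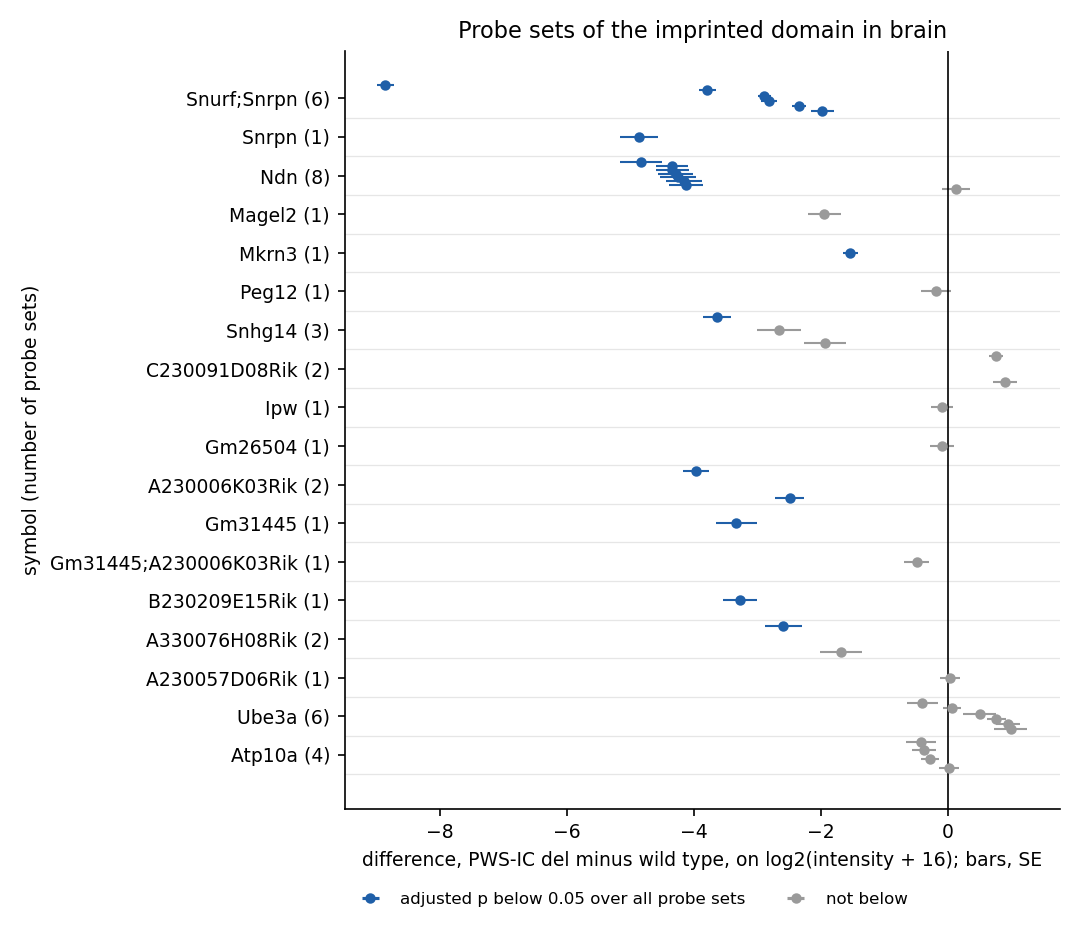
Difference between PWS-IC del and wild type (horizontal axis, log2; bars, SE) for each of the 43 probe sets of the domain, by listed symbol (vertical axis). Blue marks the 21 probe sets with an adjusted p below 0.05 over all probe sets, all of them lower; the probe set at -8.86 is listed under Snurf and Snrpn, and 1 of 8 for Ndn sits at 0.13.

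Ube3a, the ubiquitin ligase gene read from the maternal copy in neurons, lies at the other end of the domain. It read 11.48, 11.33, 11.65 and 11.87 in wild type and 12.47, 12.33 and 12.26 in mutants. All 3 mutant arrays were above all 4 wild-type arrays. The difference of 0.76 ± 0.14, 1.7-fold, did not pass over all genes, with an adjusted p of 0.478 from limma. Groups did not overlap for 3 of its 6 probe sets, at 0.76, 0.95 and 0.99, and the others differed by -0.40 to 0.50. Atp10a, a phospholipid flippase gene next to it, differed by -0.42 ± 0.24 between overlapping groups (limma adjusted p = 0.569).

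Across the 16 members, 11 had groups that did not overlap, 8 of them among the 10 tested. These counts go by symbol: C230091D08Rik and Gm31445 count apart from Snhg14 and A230006K03Rik, of which RefSeq lists them as synonyms. With no filter on low values 9 members were lower and 1, C230091D08Rik, was higher. By probe set, 21 of 43 were lower, 0 were higher, and 30 did not overlap. Within the 4 midbrain-rich arrays the differences were -4.84 for Snrpn, -4.60 for Ndn, -3.53 for Snhg14, -4.29 for A230006K03Rik and -3.77 for B230209E15Rik. Within the 3 midbrain-poor arrays they were -5.00, -3.82, -3.92, -3.41 and -2.44, so the falls were present in both sets of arrays. Each of these 5 genes remained past the threshold in 7 of 7 fits that left out 1 array. With the replicate number as a block, A230006K03Rik alone of them did (limma adjusted p = 0.0433).

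No gene beside the domain passed. Of 21 measured flanking genes 18 were tested, and 15 of these were positive. Their median difference was 0.14, with a range of -0.39 to 0.41, against 0.06 over all genes tested. Toward Atp10a lie Gabrg3 and Gabra5, genes for subunits of the GABA-A receptor, at -0.39 ± 0.24 and 0.17 ± 0.17, and farther out the magnesium transporter gene Nipa2 at 0.11 ± 0.09. Beyond Peg12 the nicotinic receptor gene Chrna7 differed by 0.29 ± 0.16, the tight junction gene Tjp1 by 0.16 ± 0.09 and Mphosph10, of the ribosomal RNA processing machinery, by 0.41 ± 0.14. Nipa2, Tjp1 and Mphosph10 were the 3 flanking genes without overlap. In wider steps along chromosome 7, 5 of 9 genes tested from Atp10a to Peg12 were lower, against 0 of 42 among the 100 annotated genes on either side and 0 of 999 on the rest of the chromosome.

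Outside the domain a single gene passed. Gm5802, annotated by RefSeq as a pseudogene on chromosome 14, read 11.86, 11.75, 11.85 and 11.62 in wild type and 9.38, 9.52 and 9.43 in mutants. Its arrays within a group agreed closely, and the groups lay over 2 log2 units apart. It fell by 2.33 ± 0.10, 5.02-fold, with an adjusted p of 5.48e-05 from limma, the smallest of all genes. With the replicate number as a block Gm5802 did not pass (0.0569 in limma). The name of its probe set ends in x_at, which Affymetrix gives to sets with probes that also match other sequences. Several loci of the domain have sets with that ending. These differed by -3.79 to -1.98 for Snurf and Snrpn (4 of 6 sets), by -4.83 to -4.13 for Ndn, and by -0.42 and 0.02 for Atp10a. Which transcript the Gm5802 probe set measured was not tested. With no filter, 2 more genes that are not among the domain's listed members passed. 1700020G03Rik, which has no position in the annotation used, fell by 1.65 (limma adjusted p = 0.000845). Its call was lost with the replicate number as a block (0.114 in limma). Gzmb, the gene for granzyme B of cytotoxic lymphocytes, fell by 1.22 (0.0145 in limma). Their wild-type means, 6.77 and 7.04, lay above the filter value of 6.65, and their means over all 7 arrays below it. The call of Gzmb was lost in 5 of the 7 fits that left out 1 array (0.0634 to 0.116 in limma), those without WT 2, WT 4, PWS-IC del 1, PWS-IC del 2 or PWS-IC del 3. A pseudocount of 64 (0.0511 in limma), quantile normalization (0.0887) and the replicate number as a block (0.372) also lost that call. So did leaving out WT 1 and WT 3 (0.0937 in limma) or WT 3 and PWS-IC del 2 (0.232). A further 4 of the 28 probe sets that passed have no gene in the annotation used, and differed by -3.95 to -2.42.

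Genes with small p-values beyond these did not pass. At an unadjusted p below 0.05 there were 1119 genes, 729 higher and 390 lower in mutants, out of 13645. Differences leaned to one side, with 62% of all genes positive, a median of 0.06, and 797 of the 1175 genes without overlap higher. Prdm8, a transcription factor gene of upper-layer cortical neurons, had the smallest p among positive differences outside the domain: it read 9.44, 9.66, 9.65 and 9.78 in wild type and 10.37, 10.29 and 10.28 in mutants. The groups did not overlap, and the difference of 0.68 ± 0.11, 1.6-fold, had an adjusted p of 0.201 from limma. The next by p outside the domain were Gm17750, Cst6, Casp1, Ccbe1, Tmem74, Cys1, Zfp874b, Flrt3 and Dnajc21, with differences of 0.48 to 0.71 and adjusted p-values of 0.478 to 0.562 in limma. Casp1, the inflammatory caspase, read 6.99 to 7.31 against 7.64 to 7.73, and Flrt3, which guides axons and synapses, read 9.80 to 10.03 against 10.25 to 10.48.

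Among negative differences outside the domain Zscan5b, a zinc-finger gene, came after Gm5802, at 7.16, 7.12, 7.38 and 7.17 in wild type and 6.55, 6.41 and 6.53 in mutants. Its difference of -0.71 ± 0.10 had an adjusted p of 0.128 from limma. The next by p were Prkch, Apela, Adgrf5, Bub1b, Trim68, Gkn2, Car3 and Gkn3, at -1.51 to -0.43, with adjusted p-values of 0.478 to 0.562 in limma. Prkch and Adgrf5, both transcribed in blood vessels, differed by -0.84 ± 0.15 and -0.69 ± 0.14. Several of the largest differences without overlap that did not pass belonged to genes of the tissues that set arrays apart. S100a5 differed by -2.76 ± 1.26, from WT 1 and WT 2, and the muscle genes Myh4 by -2.61 ± 0.95, Tnnc2 by -2.54 ± 0.89 and Atp2a1 by -2.34 ± 0.65, from WT 1 and WT 3. On the positive side Neurod1, of cerebellar granule cells, differed by 1.25 ± 0.42, with 11.56 on PWS-IC del 2 and 10.01 and 9.66 on the other mutants against 8.60 to 9.58 in wild type. Neurod6, of cortical and hippocampal pyramidal neurons, differed by 0.74 ± 0.18, at 10.93, 10.65 and 11.18 against 9.94 to 10.61.

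**Figure D4:**
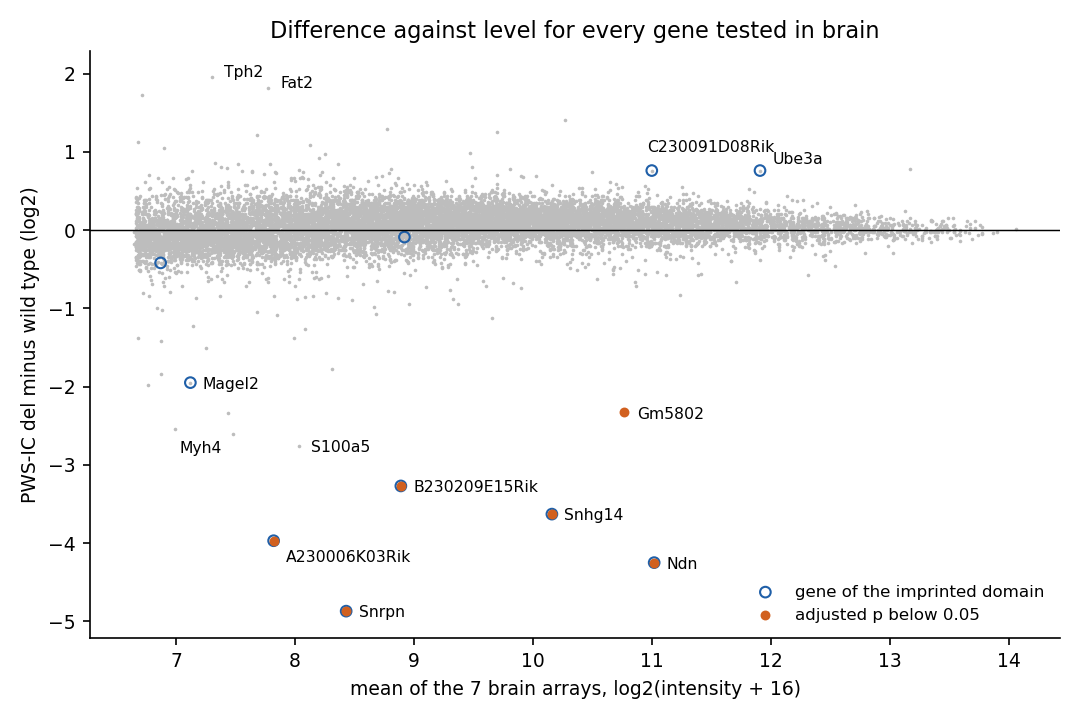
Difference between PWS-IC del and wild type (vertical axis, log2) against the mean level over the 7 brain arrays (horizontal axis, log2(intensity + 16)) for each of the 13645 genes tested. Filled orange points are the 6 genes past the threshold and open blue circles the 10 tested members of the domain; Gm5802 at -2.33 is the single orange point outside the domain.

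Imprinted genes elsewhere in the genome were examined next. Of 45 tested, 0 passed, 25 were positive and the median difference was 0.03, against 0.06 over all genes, or -0.12 against 0.03 without WT 1 and WT 2. Peg3, a paternally read zinc-finger gene, differed by -0.38 ± 0.16, at 12.46 to 12.75 in wild type and 12.63, 12.06 and 12.03 in mutants. The maternally read noncoding RNA Meg3 differed by -0.46 ± 0.27, with 13.49 on WT 1 alone above 13. Airn, the antisense RNA of the Igf2r locus, was the 1 gene of the list without overlap, at -0.24 ± 0.11. Of 7 tested MAGE genes (Ndn, Magel2, Nsmce3, Maged1, Maged2, Magee1 and Mageh1) Ndn fell, and Magel2 was the only other one without overlap. Nsmce3, whose protein belongs to a complex that maintains chromosomes, differed by 0.19 ± 0.17. Spliceosomal proteins are the partners of SmN. Of 21 tested genes for Sm and related proteins, Snrpn fell and 0 others passed; the median was 0.15, or 0.09 without WT 1 and WT 2, and Lsm2 and Lsm8 were higher without overlap by 0.44 ± 0.12 and 0.40 ± 0.13.

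Hypothalamic and feeding genes bear on the eating behaviour for which the syndrome is known, and 0 passed. The 21 tested peptide genes had a median difference of 0.09, or -0.08 without WT 1 and WT 2, and several varied more within a group than between groups. Pmch, the melanin-concentrating hormone gene, ran from 6.11 to 11.67 among wild-type arrays and from 6.49 to 10.99 among mutants. Pomc was at 11.31 on WT 3, the array with Prl and Gh, and between 7.39 and 8.18 elsewhere. Crh, the stress hormone releasing factor, differed by 0.42 ± 0.16, at 8.64 to 9.27 in the controls and 9.20 to 9.46 in PWS-IC del.

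Among receptor genes, Npy2r ran from 5.97 to 8.14 in the controls and from 6.47 to 8.87 in PWS-IC del. Npy1r, a receptor of the appetite peptide neuropeptide Y, read 8.38, 8.56, 8.48 and 8.62 in wild type and 9.01, 8.80 and 9.10 in mutants. Its groups did not overlap; the difference was 0.46 ± 0.11 (unadjusted p = 0.00273 and adjusted p = 0.562, limma). Npy5r at 0.39 ± 0.11 and the cannabinoid receptor gene Cnr1 at 0.28 ± 0.10 were the other 2 without overlap among 17 tested genes, whose median was 0.10, or -0.04 without WT 1 and WT 3. Pcsk1, the convertase that cuts prohormones into active peptides, read 7.28, 7.71, 8.02 and 7.94 in wild type and 8.59, 8.36 and 8.13 in mutants. It was higher without overlap by 0.63 ± 0.19 (unadjusted p = 0.00978 and adjusted p = 0.562, limma), while the 12 tested genes of prohormone processing had a median of 0.02.

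Genes of transmitter systems followed in part the division of the arrays. For serotonin, 0 of 16 tested genes passed and the median was 0.20, with Tph2 at 1.95 ± 1.28 and the serotonin transporter gene Slc6a4 at 1.72 ± 1.15. Both were low on WT 1, WT 2 and PWS-IC del 3. Without those 3 arrays Tph2 differed by 1.94, from 7.82 and 8.21 in WT 3 and WT 4 against 9.80 and 10.11 in PWS-IC del 1 and 2. Tph2 passed in that fit (limma adjusted p = 0.00596), which had 2 arrays per group. The division was made after levels, those of Tph2 included, were seen, so nothing about genotype is read from this pass. Within the 3 it read 4.51 and 5.31 against 5.31, near the floor. For dopamine, 0 of 10 passed and the median moved from 0.01 in the midbrain-rich set to -0.59 in the midbrain-poor one. There Th, the gene for an enzyme of dopamine synthesis, was at 6.04 on PWS-IC del 3 against 9.34 and 9.02. Th is also among the olfactory bulb markers, and that list's median was -2.03 in the midbrain-poor set. Genes of glutamate receptors had a median of -0.01 over 20 tested, those of GABA receptors -0.07 over 13, those of transmitter release -0.07 over 19 and those of the postsynaptic scaffold -0.02 over 17. Without WT 1 and WT 2 these medians were 0.12, -0.02, 0.06 and 0.13, and that of serotonin genes -0.15. None of them passed.

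The series names mitochondrial dysfunction in its title, and genes of mitochondria were grouped by role. Mitochondrial ribosomal proteins, which make the proteins encoded by mitochondrial DNA, leaned one way: of 78 tested, 78 were positive, with differences of 0.07 to 0.47 and a median of 0.23, against 62% positive and a median of 0.06 over all genes tested. Yet 0 of the 78 passed, and 13, or 16.7%, did not overlap. Mrpl1 had the largest difference, 0.47 ± 0.18, at 7.92, 8.20, 8.55 and 8.67 in wild type and 8.71, 8.89 and 8.81 in mutants. Mrps18c read 10.47, 10.63, 10.66 and 11.04 against 11.05, 11.14 and 11.07, a difference of 0.39 ± 0.14. WT 4 came close to the mutants for both, and WT 1 was lowest.

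All 78 were also positive within the midbrain-rich arrays, with a median of 0.15, and within the midbrain-poor ones, with 0.30. The members share arrays, so their number is not a number of independent observations. WT 1, which had the lowest level of the list at -0.31 from the mean of the arrays, also had the highest median intensity, 170.1 against 142.1 to 157.9 on the others. Without WT 1 and WT 2 the list's median was 0.12, where that of all genes was 0.03. The part of array intensity in this shift was not tested.

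Respiratory chain genes had smaller medians, and the lists were not tested against each other. For complex I, which takes electrons from NADH, 32 of 33 tested genes were positive with a median of 0.11, and Ndufa6 differed by 0.34 ± 0.14. Complexes II and III, which pass the electrons on, had 14 of 14 positive and also a median of 0.11, led by Uqcrh at 0.32 ± 0.14. Without WT 1 and WT 2 these medians were 0.05 and 0.04. For complex IV, which hands them to oxygen, the median was 0.03 over 14 genes, and for complex V, the ATP synthase, 0.06 over 16. No gene of complexes I to V passed and none had groups without overlap. ND5, the single gene of the mitochondrial DNA measured, read 13.62 to 13.86 in the controls and 13.69 to 13.72 in PWS-IC del.

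Regulators of mitochondria were mixed. Of 27 tested, 19 were positive and the median was 0.10, against -0.01 in the midbrain-poor set. The deacetylase genes Sirt3 and Sirt1 were higher without overlap by 0.29 ± 0.11 and 0.26 ± 0.11, and Ppara, a nuclear receptor that drives fat burning, differed by -0.27 ± 0.11, at 8.95 to 9.35 in the controls and 8.90 to 8.95 in PWS-IC del, where the groups all but touched. Fatty acid oxidation had 24 of 25 positive and a median of 0.22, which became 0.03 without WT 1 and WT 2. Eci1, an isomerase of that pathway, differed by 0.38 ± 0.19. Genes of pyruvate oxidation and the citric acid cycle had a median of 0.11 over 25, or 0.02 without WT 1 and WT 2, and those of glycolysis -0.01 over 19. Antioxidant genes had a median of 0.12 over 22, or 0.01 without those arrays, with the mitochondrial superoxide dismutase gene Sod2 at 0.24 ± 0.11. None of these passed.

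**Figure D5:**
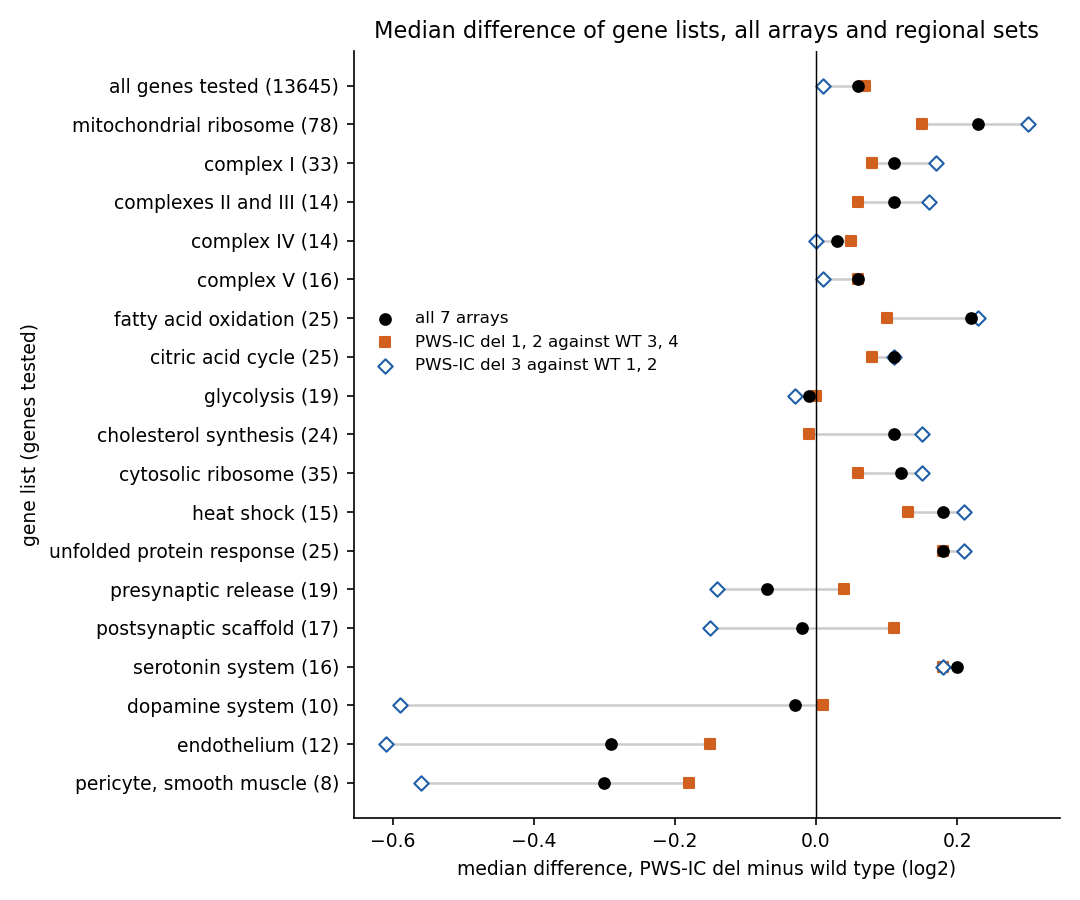
Median difference of each gene list (vertical axis, with genes tested) between PWS-IC del and wild type (horizontal axis, log2) for all 7 arrays (black circles), the 4 midbrain-rich arrays (orange squares) and the 3 midbrain-poor arrays (open diamonds). The mitochondrial ribosome lies at 0.23, 0.15 and 0.30 against 0.06, 0.07 and 0.01 for all genes tested, and endothelium at -0.29, -0.15 and -0.61.

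Stress and translation genes were read in the same way. The unfolded protein response, by which a cell adjusts folding in the endoplasmic reticulum, had 23 of 25 genes positive, a median of 0.18 and 8, or 32%, without overlap; 0 passed. Its transcription factor gene Xbp1 read 11.72, 11.99, 12.08 and 12.02 in wild type and 12.45, 12.35 and 12.37 in mutants, a difference of 0.44 ± 0.11. Manf at 0.55 ± 0.15, Sdf2l1 at 0.53 ± 0.15 and Creld2 at 0.48 ± 0.15, each a protein of that compartment, were likewise higher without overlap, with adjusted p-values of 0.562 from limma. The list's median was 0.18 in the midbrain-rich set, 0.21 in the midbrain-poor one and 0.10 without WT 1 and WT 2.

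Heat shock genes had 15 of 15 positive and a median of 0.18, with the chaperone gene Hspa1a at 0.69 ± 0.24. Cytosolic ribosomal proteins had 32 of 35 positive and a median of 0.12. Clock genes had a median of 0.04 over 19, with Cry1, a repressor of the daily clock, higher without overlap by 0.48 ± 0.12, at 8.72 to 9.10 against 9.34 to 9.56. Immediate early genes, which follow neuronal activity, had a median of 0.15 over 19, and cholesterol synthesis 0.11 over 24. Medians without WT 1 and WT 2 were 0.06 for heat shock, 0.05 for cytosolic ribosomal proteins, 0.18 for clock, 0.41 for immediate early and -0.07 for cholesterol synthesis genes, the last with its sign turned. None of these genes passed.

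Markers of cell types other than neurons closed the comparison. Endothelial markers, of the lining of blood vessels, were negative for 12 of 12 tested genes, with a median of -0.29, and 3 did not overlap. Flt1, a receptor of vascular growth factor, read 9.57, 9.47, 8.89 and 8.52 in wild type and 8.40, 8.44 and 8.16 in mutants, a difference of -0.78 ± 0.24. The transporter gene Slco1a4 of brain vessels differed by -0.63 ± 0.18 and the receptor gene Kdr by -0.44 ± 0.14. Pericyte and smooth muscle markers were negative for 8 of 8, with a median of -0.30 and Abcc9, a channel subunit of pericytes, at -0.51 ± 0.13. The medians were -0.15 and -0.18 in the midbrain-rich set and -0.61 and -0.56 in the midbrain-poor set, and WT 1 and WT 2 were the highest arrays for both. Negative in both sets were 8 of the 12 endothelial markers and 7 of the 8 of pericytes and smooth muscle. None of these genes passed, at adjusted p-values of 0.562 from limma or above.

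Endothelial intensities summed over the list lay between 5850 and 7270 in wild type and between 5200 and 6010 in mutants, and those of pericytes and smooth muscle between 5420 and 7400 and between 4890 and 5200. Striatal markers were negative for 10 of 10, with a median of -0.57 and sums of 10500 to 36200 and 10000 to 17500. This median became -0.04 without WT 1 and WT 2, the arrays with the most striatal signal, where the dopamine receptor gene Drd2 read 9.64 and 9.08 against 7.42 to 8.71 elsewhere. Skeletal muscle markers were negative for 13 of 14, with a median of -1.17, which became -0.15 without WT 1 and WT 3. For choroid plexus, which makes the cerebrospinal fluid, the median was -1.17 in the midbrain-rich set and 2.59 in the midbrain-poor one, so that the sign depended on the arrays. Medians for neurons, astrocytes, oligodendrocytes and microglia were -0.02, 0.08, -0.04 and 0.23, with 0 genes past the threshold, and 0.01, -0.06, -0.36 and 0.06 without WT 1 and WT 2. The part of tissue makeup in any of these differences was not tested.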

How the data were processed

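RNA of 7 brains was measured on Affymetrix Mouse Genome 430 2.0 arrays, 4 wild-type and 3 PWS-IC del. The deposited values are 1 intensity per probe set and array, made with PLIER in Affymetrix Expression Console per the submitters' processing notes. Versions, background correction and normalization were not given in the sources used here. Intensities were put on the scale log2(intensity + 16). Of 45101 probe sets 64 are controls, 34945 have 1 gene symbol, 932 several and 9160 none in the platform annotation. Each gene was read from its 1-symbol probe set with the highest mean, giving 18193 genes, and genes with a mean below the 0.25 quantile were not tested. Genotypes were compared with limma 3.58.1 in R 4.3.3 (lmFit, eBayes, 2-sided, Benjamini-Hochberg, threshold 0.05), checked on simulated data; a fit with no filter and a fit over 45037 probe sets were added. The number of arrays limits precision.

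Named were all genes of the domain, all that passed, those with the smallest p in each direction, those with the largest differences without overlap, and listed genes that illustrate a list. The members and the lists were chosen with earlier results of these data known. The midbrain and raphe list, a few list edits and the division of arrays by it were made after levels were seen. The labels do not say whether replicate numbers pair the mice. Same-numbered arrays had correlations of deviations of -0.051, -0.352 and -0.526. These values cannot decide pairing, because deviations also followed the midbrain division: PWS-IC del 3 correlated at 0.359 with WT 1 and 0.53 with WT 2. Alternatives changed the pseudocount, scaling, filter, probe set choice, array weights, replicate block and arrays left out.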

Additional observations from a re-analysis of the deposited data

Results flagged for a closer look

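In the 4 wild-type arrays, 6 of 103 results had 1 array far from the other 3. The gap to the nearest one, as a share of the range, was above Dixon's critical value for 4 samples. Chance gives about 1 such case in 20 groups, and 6 of 103 is near that share. Most of the 103 are genes named above, some of them chosen for their wide range over the arrays. The count is therefore a description and no test. WT 3 was the highest for 4 genes. Prl, the pituitary hormone prolactin, was at 10.45 there against a median of 6.14 in the other 3 wild-type arrays. Pomc, the hormone precursor of pituitary and hypothalamus, was at 11.31 against 7.72, the vasopressin gene Avp at 10.31 against 7.47, and the Purkinje cell gene Pcp2 at 13.03 against 8.60. Atp10a was lowest on WT 4, at 6.40 against 7.26, a level inside the range of the mutants. Snap25 was highest on WT 1, at 13.83 against 13.66. The mutant group has 3 arrays and was not examined in this way.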

How the results depend on the processing

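The 6 genes lower in mutants became 13 past the threshold with no filter on low values (1 higher), 10 with array quality weights (2 higher) and 1 (A230006K03Rik) with the replicate number as a block, and remained 6 in each fit that left out 1 array. The domain's 5 called genes became 10 with no filter (9 lower and 1 higher), 8 (1 higher) with the probe set chosen by its mean over all 14 arrays, muscle included, and 1 with the replicate block. The 28 probe sets became 11 with the block and 23 to 30 without 1 array. Same-numbered arrays did not correlate best with each other in any of 3 cases. In alternatives chosen after seeing the data, 16 genes passed without WT 1, WT 2 and PWS-IC del 3 (3 of them higher), and 9 with the regional set as a block (2 higher). Those 3 arrays alone gave 446 genes (148 higher) and 9 of the domain, with 1 residual degree of freedom and the lone mutant assumed to vary like wild type; the calls include tissue genes such as S100a5 and Eomes, and nothing about genotype is read from them. Signs turned for uncalled members: Ipw was 0.09 with array weights, -0.20 to 0.06 without 1 array (the latter without PWS-IC del 2) and 0.00 without WT 3 and PWS-IC del 2; Gm26504 was -0.21 to 0.13 without 1 array (the latter without PWS-IC del 1); A230057D06Rik was -0.09 (without WT 2) to 0.11 without 1 array, -0.05 without PWS-IC del 1 and -0.03 without WT 1 and WT 2; Peg12 was 0.03 without WT 1 and WT 3 and 0.13 without WT 3 and PWS-IC del 2. The causes were not tested. The median over all genes was 0.06, 0.02 after quantile normalization and 0.13 after median centring. Dim genes near the floor of 4.00 have understated differences.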
